A study of Mus musculus with 27 samples.

Results

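The troponin genes of the mouse code for the calcium switch of striated muscle, and their levels were followed here in C2C12 cells under 3 constructs and 3 conditions. The 8 genes were taken by symbol, namely Tnnt1, Tnnt2 and Tnnt3 for troponin T, Tnni1, Tnni2 and Tnni3 for troponin I, and Tnnc1 and Tnnc2 for troponin C, of 24825 genes in all. The rule uses no measured value, although the family was picked with earlier results of these data known, and all 8 passed the filter on low values in every fit. The cell line, C2C12, is made of mouse myoblasts that can fuse into muscle fibers in culture. Cells carrying the control retrovirus, full-length NFIA (a transcription factor of the nuclear factor I family) or its Δpro#3 mutant, which lacks a short C-terminal stretch, were compared before induction (day 0), on day 7 of differentiation, and on day 7 following 4 h in 10 µM forskolin. This gave 9 groups of 3 replicates. Forskolin raises cyclic AMP by activating adenylyl cyclase.

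The labels give all groups, control cells included, 1 adipogenic treatment: isobutylmethylxanthine, indomethacin, dexamethasone, insulin, T3 and rosiglitazone, and later insulin, T3 and rosiglitazone. The methods of the study give that mixture for another cell type and refer to earlier work for C2C12, so the exact mixture is uncertain. Both NFIA forms came from a viral vector and not from the gene itself. The labels give no source beyond the replicate number, so the spread between replicates may be technical. Expression is given as FPKM, fragments per kilobase of transcript scaled to the fragments of the library, which allows levels of different genes to be compared per length.

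Troponin sits on the actin thin filament and makes contraction depend on calcium. Troponin T ties the complex to tropomyosin, troponin I holds back the interaction of actin with myosin, and troponin C binds calcium and releases that block. Slow fibers use Tnnt1 and Tnni1, fast fibers use Tnnt3, Tnni2 and Tnnc2, and the heart uses Tnnt2 and Tnni3, while Tnnc1 serves both slow fibers and the heart. Tnnt2 is also well known in immature skeletal muscle, where it precedes the adult isoforms.

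Of the 8 genes, 6 lie in 3 pairs of a troponin I and a troponin T gene. In the mm9 assembly, Tnni1 and Tnnt2 share chr1:137679642-137748837 with a gap of 29885 bp that holds Lad1. Tnnt1 and Tnni3 share chr7:4456172-4475831 with a gap of 1922 bp, and Tnni2 and Tnnt3 share chr7:149627713-149701914 with a gap of 54425 bp that holds Lsp1. The troponin C genes stand alone, Tnnc1 at chr14:32021498-32024915 on the plus strand and Tnnc2 at chr2:164602661-164605467 on the minus strand. The pairs are of mixed type: the slow Tnni1 lies beside the cardiac Tnnt2, the slow Tnnt1 beside the cardiac Tnni3, and the fast Tnni2 beside the fast Tnnt3. An uncharacterised gene record, 6030429G01Rik, overlaps Tnni3 on the same strand, so the fragments of Tnni3 may be shared.

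The 250 bases before the RefSeq start site are shown for the 2 genes used by the heart that also ran high in these cells. Both were read from the GRCm38.p6 table of RefSeq and matched exactly 1 place of mm9, on the plus strand. That of Tnnc1 is at chr14:32021248-32021497, in no exon. It overlaps a record of the neighbouring Nisch gene and a second, longer record of Tnnc1 at chr14:31983021-32024915. That of Tnnt2 is at chr1:137732661-137732910, in no annotated gene. Capitals mark E-boxes, CANNTG, the letters bound by MyoD and its relatives.
Tnnc1: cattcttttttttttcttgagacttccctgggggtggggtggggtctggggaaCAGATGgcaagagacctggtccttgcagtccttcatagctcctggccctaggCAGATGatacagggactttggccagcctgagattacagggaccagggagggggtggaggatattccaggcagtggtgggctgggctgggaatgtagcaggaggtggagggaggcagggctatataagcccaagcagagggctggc
Tnnt2: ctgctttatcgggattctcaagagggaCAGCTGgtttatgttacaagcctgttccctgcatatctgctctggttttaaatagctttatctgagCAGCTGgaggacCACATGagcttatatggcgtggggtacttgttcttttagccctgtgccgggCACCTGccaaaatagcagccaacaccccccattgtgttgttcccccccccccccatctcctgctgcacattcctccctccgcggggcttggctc
Windows were at hand for 6 of the 8 genes and not for Tnni2 and Tnnt3. An E-box stood in all 6, with 4 in Tnnt2, 4 in Tnni1, 2 in Tnnc1, 2 in Tnnc2, 1 in Tnnt1 and 1 in Tnni3. Of 32851 windows of the same length over the genome, 66.2% held one, at a mean of 1.16 per window, so its presence does not set these genes apart. CAGCTG, an E-box by its letters and counted among them, was found in Tnnt2 and Tnni1 and in 13.0% of all windows. The M-CAT letters CATTCC stood in Tnnc1 and Tnnt2 and in 12.6% of all windows. TTGGC, the half-site of nuclear factor I proteins, stood 3 times in Tnnt2 and 1 time each in Tnnc1 and Tnnc2, against 41.5% of all windows with at least 1. Both strands were read. The MEF2 motif and the CArG box were found in none of the 6 and in 2.92% and 1.47% of all windows. A match in letters is a description and not a bound site.

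The libraries held 9567769 to 27230965 fragments, with a median of 17707223. Nfia was at 225 to 594 FPKM with either construct at every time, but for control cells at day 0 it was at 0.879, 7.35 and 0.175 FPKM, and in the later control samples at most 0.253 FPKM. The full-length and mutant transcripts cannot be told apart in gene totals. The skeletal muscle markers summed to 845 FPKM in control cells, 154 in full-length NFIA-expressing cells and 448 in Δpro#3 mutant-expressing cells at day 0, and to 2573, 553 and 2158 FPKM at day 7. Among them, Myog, the regulator of terminal muscle differentiation, averaged 162, 1.96 and 16.3 FPKM at day 0, whereas Myod1, which acts earlier, averaged 43.7, 17.8 and 41.7 FPKM. The 6 adipocyte markers summed to 165 to 190.2 FPKM over the control samples of day 7, 12366 to 13763 in full-length NFIA-expressing cells and 345 to 1624 in Δpro#3 mutant-expressing cells. The highest of the latter was replicate 1, whose Fabp4 was 1415 FPKM against 294 and 354 in the others, and replicate 1 also had the highest Fabp4 after forskolin, 386 against 103 and 137 FPKM. Of the 8 cardiomyocyte markers, Nppa, Ryr2, Myl7 and Tbx5 were at or near 0 in every group, while Myh6 averaged 0.448 FPKM in control cells at day 0 and 10.97 at day 7, Gata4 averaged 2.29 to 5.35 FPKM over the groups, and Nppb and Nkx2-5 reached at most 2.51 and 0.464 FPKM. The list summed to 6.07 FPKM in control cells at day 0 and 16.3 at day 7. In these bulk samples, fewer muscle cells and less troponin RNA per cell cannot be told apart, and the part of these markers in the differences below was not tested.

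Day 0 asked what the constructs did to the troponin genes before differentiation was induced. Control myoblasts already expressed 7 of the 8 at 50.6 to 174 FPKM in the mean. With full-length NFIA all 8 had the lowest mean of the 9 groups, and 7 of them were called lower, at an adjusted p under 0.05 in limma and more than 3-fold in FPKM + 1. Over all genes tested, 2.78% were called lower in this comparison. The Δpro#3 mutant lowered the same 7 against control cells, where 1.32% of all genes were called lower. Both comparisons share the control samples.

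**Figure D1:**
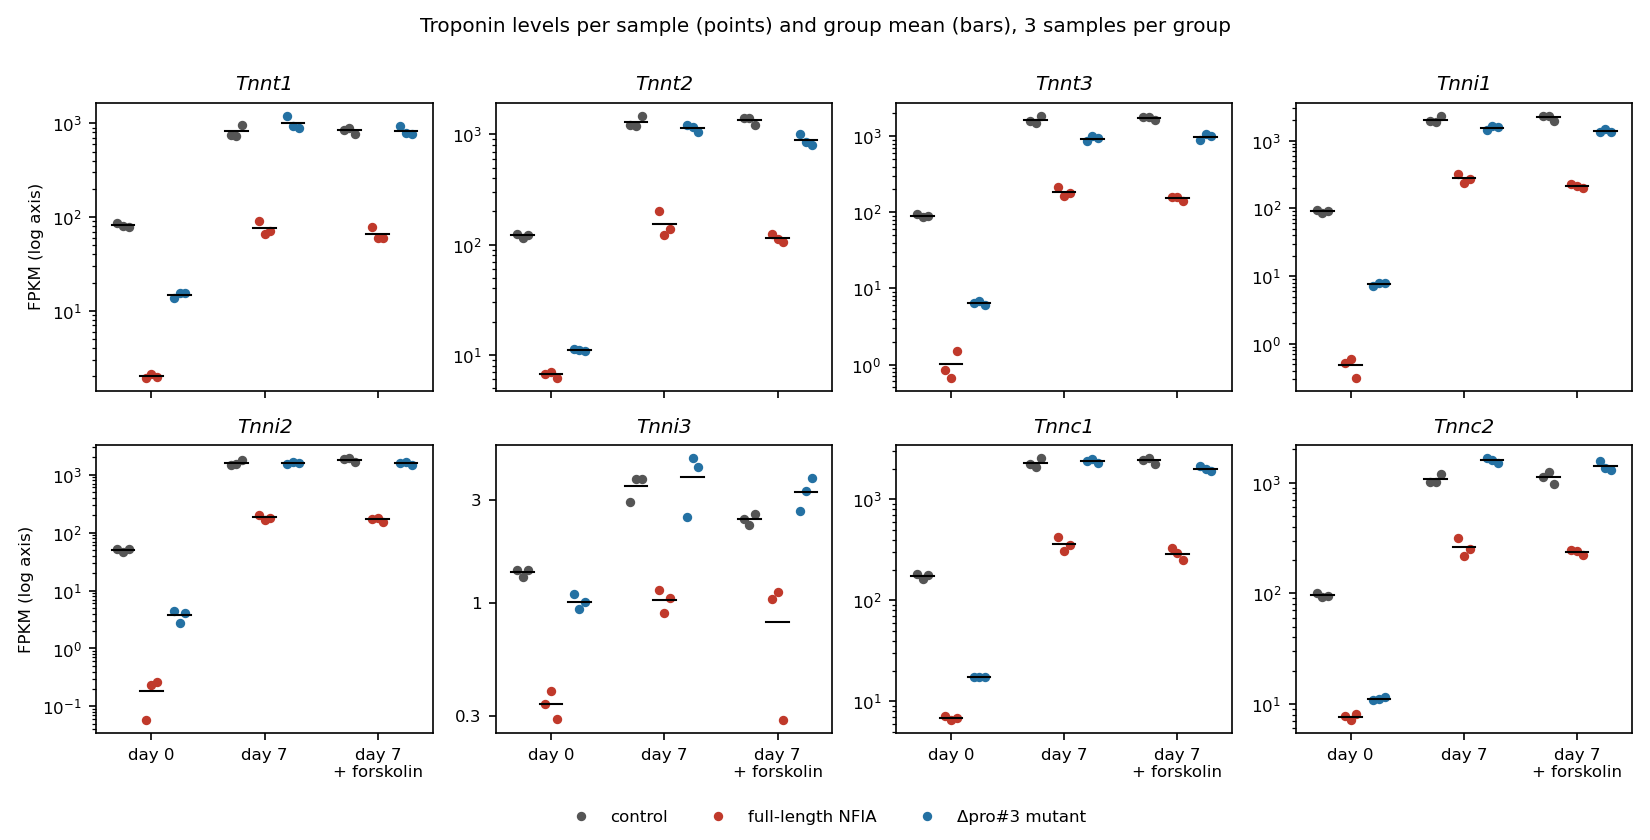
Troponin FPKM per sample on a log axis (points) with the mean of 3 samples (bars), for control cells (grey), full-length NFIA (red) and the Δpro#3 mutant (blue) at day 0, day 7 and day 7 with forskolin. At day 0 the red points are the lowest for all 8 genes, and at day 7 the blue points of most genes lie near the grey ones, while the red points stay below.

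Among the troponin T genes, the slow Tnnt1 was at 85.8, 81.1 and 78.8 FPKM in control cells at day 0, at 1.93, 2.12 and 1.97 with full-length NFIA, and at 13.7, 15.6 and 15.4 with the Δpro#3 mutant. The samples of the 3 groups did not overlap. Its level with full-length NFIA was 40.8-fold lower than in control cells (log2 change in FPKM + 1 of -4.78, SE 0.051, adjusted p = 1.55e-13 in limma), and with the mutant 5.49-fold lower (-2.38, adjusted p = 6.69e-11). The mutant was therefore 7.43-fold above full-length NFIA (log2 change 2.40, adjusted p = 8.50e-11).

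The cardiac and embryonic Tnnt2 was at 126, 115 and 123 FPKM in control cells, at 6.76, 6.995 and 6.21 with full-length NFIA, and at 11.2, 11.1 and 10.8 with the mutant. It was 18.2-fold lower with full-length NFIA (log2 change -4.00, adjusted p = 2.02e-13) and 10.99-fold lower with the mutant (-3.34, adjusted p = 4.98e-12). The 2 constructs thus lay close together for this gene, 1.66-fold apart, which passed the adjusted p but not the 3-fold limit (log2 change 0.66, adjusted p = 3.31e-07).

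The fast Tnnt3 was at 94.8, 86.3 and 90.4 FPKM in control cells, at 0.835, 0.672 and 1.497 with full-length NFIA, and at 6.43, 6.86 and 6.13 with the mutant. Full-length NFIA lowered it 90.4-fold (log2 change -5.54, SE 0.12, adjusted p = 1.94e-11) and the mutant 13.99-fold (-3.61, adjusted p = 1.19e-09). The lowest values rested on 24, 19 and 19 fragments per sample, so the ratio is less precise than for the other troponin T genes.

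As a share of the control level, the troponin I genes of skeletal muscle were left lowest at day 0 with full-length NFIA. The slow Tnni1 was at 95.9, 85.9 and 92.9 FPKM in control cells, at 0.525, 0.605 and 0.317 with full-length NFIA (15, 17 and 4 fragments), and at 7.13, 7.995 and 7.86 with the mutant. From the pooled fragments, full-length NFIA left 0.569% of the control level, with an exact 95% binomial interval of 0.398% to 0.788% that covers counting error only (log2 change -5.97, adjusted p = 3.88e-13). The mutant left it 12.0-fold below control cells (-3.42, adjusted p = 6.69e-11) and 15.9-fold above full-length NFIA (log2 change 2.55, adjusted p = 5.00e-10).

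The fast Tnni2 was at 52.2, 47.0 and 52.7 FPKM in control cells, at 0.0585, 0.238 and 0.265 with full-length NFIA, from 1, 4 and 2 fragments, and at 4.45, 2.74 and 4.05 with the mutant. The 7 fragments against 2596 in control cells correspond to 0.334% of the control level (exact 95% interval 0.134% to 0.689%). The fitted log2 change was -5.45 with full-length NFIA (adjusted p = 2.96e-11) and -3.46 with the mutant (adjusted p = 2.37e-09), 13.5-fold lower. With so few fragments, the gap between the constructs, 20.04-fold in the means, is known only roughly (log2 change 1.99, adjusted p = 1.63e-07).

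Tnni3, the inhibitory subunit of the heart, was the exception in level. It was at 1.43, 1.33 and 1.43 FPKM in control cells, at 0.342, 0.391 and 0.290 with full-length NFIA, and at 1.10, 0.936 and 1.02 with the mutant. No samples of the 3 groups overlapped, and its adjusted p was 3.04e-07 for full-length NFIA (log2 change -0.84) and 0.00454 for the mutant (-0.25), yet neither passed 3-fold in FPKM + 1. The fall with full-length NFIA was called with a pseudocount of 0.1 (-1.77) and by voom (-1.91). The ratio of its FPKM without the added 1 was 4.09-fold for full-length NFIA, on 8, 9 and 3 fragments.

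Of the calcium-binding subunits, Tnnc1 was at 183, 163 and 177 FPKM in control cells, at 7.16, 6.54 and 6.78 with full-length NFIA, and at 17.3, 17.4 and 17.2 with the mutant. It was 25.5-fold lower with full-length NFIA (log2 change -4.48, adjusted p = 1.19e-13) and 10.1-fold lower with the mutant (-3.26, adjusted p = 5.29e-12). The fast Tnnc2 was at 99.5, 92.2 and 95.3 FPKM in control cells, at 7.78, 7.16 and 8.04 with full-length NFIA, and at 10.8, 11.2 and 11.6 with the mutant. Its fall was the smallest of the 7 called genes with full-length NFIA, 12.5-fold (-3.48, adjusted p = 5.64e-13), and 8.57-fold with the mutant (-2.99, adjusted p = 9.65e-12).

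Between the constructs at day 0, 4 of the 8 were called higher with the Δpro#3 mutant than with full-length NFIA, where 0.925% of all genes were called higher. These were Tnnt1, Tnnt3, Tnni1 and Tnni2. Tnnt2, Tnnc1, Tnnc2 and Tnni3 had adjusted p-values of 8.69e-06 or less, where 65.3% of all genes were under 0.05, but stayed within 3-fold in FPKM + 1 (log2 changes of 0.66, 1.23, 0.49 and 0.59). Full-length NFIA gave the 8 genes a median log2 change of -4.63 and the mutant one of -3.30, against 0.01 over all genes in both comparisons.

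**Figure D2:**
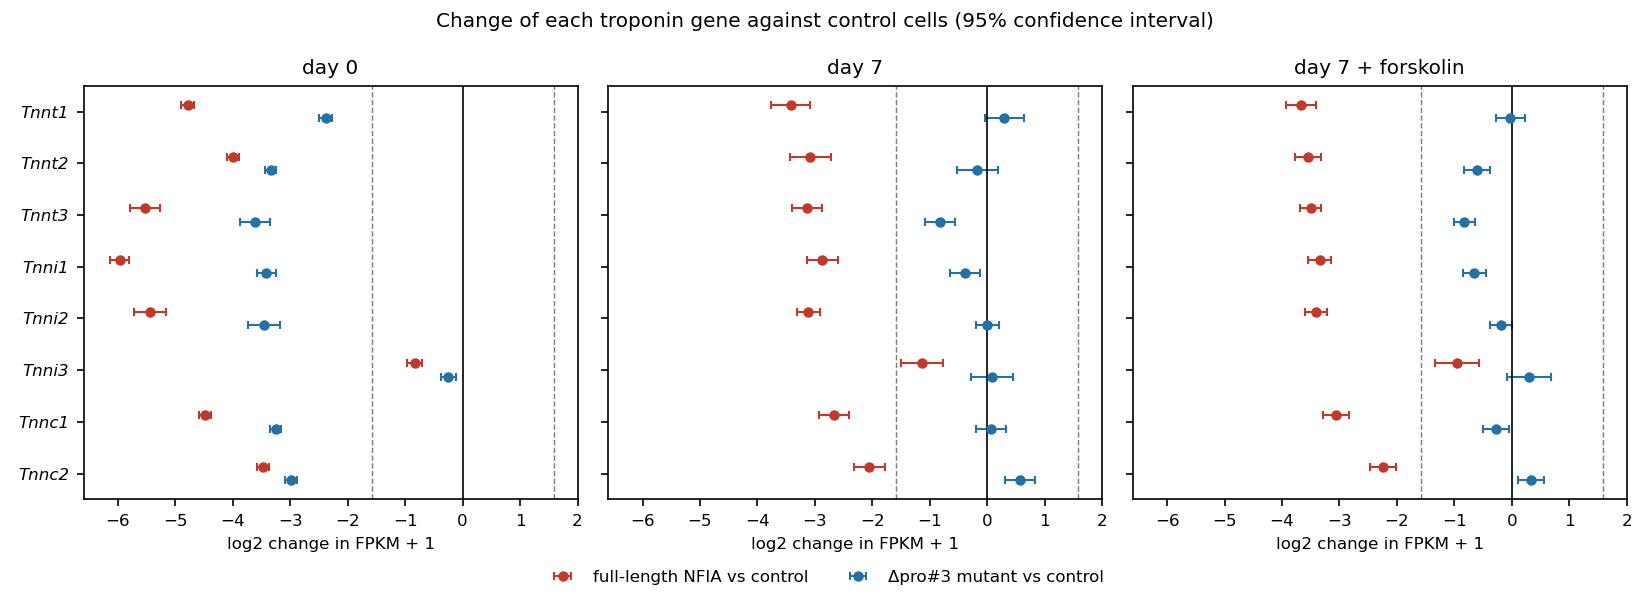
Log2 change in FPKM + 1 against control cells (x axis) of each troponin gene (y axis), with 95% confidence intervals, for full-length NFIA (red) and the Δpro#3 mutant (blue) at each time. Dashed lines mark 3-fold. At day 0 the genes other than Tnni3 lie left of the dashed line for both constructs, and at day 7 only the red points do.

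At day 7, the question was whether the lower troponin levels lasted through differentiation. With full-length NFIA it did for the same 7 genes, which were called lower than in control cells, against 3.30% of all genes. With the Δpro#3 mutant, 0 of 8 were called in either direction by limma with the 3-fold limit, against 1.44% of all genes. Voom, run on the fragments, also called 0. Without the fold limit, 3 of the 8 had an adjusted p under 0.05 in that comparison, where 48.8% of all genes did. Also 3 had an unadjusted p under 0.05, where the share of all genes was at least 48.8%. Between the constructs, 7 of 8 were called higher with the mutant, against 2.60% of all genes.

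Tnnt1 reached 759, 739.6 and 968 FPKM in control cells at day 7, 91.8, 66.2 and 70.4 with full-length NFIA, and 1203, 937 and 898 with the mutant. Its level with full-length NFIA was 10.8-fold below that of control cells (log2 change -3.42, adjusted p = 1.81e-08) and overlapped that of control myoblasts at day 0. The mutant and control samples overlapped, with a log2 difference of 0.30 (95% confidence interval -0.04 to 0.64, adjusted p = 0.133). Against full-length NFIA the mutant was 13.3-fold higher, the widest gap between the constructs among the 8 (log2 change 3.72, adjusted p = 1.58e-08).

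Tnnt2 was at 1225, 1182 and 1473 FPKM in control cells, at 202, 122 and 139.9 with full-length NFIA, and at 1220.2, 1165 and 1055 with the mutant. It was 8.36-fold lower with full-length NFIA (log2 change -3.08, adjusted p = 5.74e-08), and the mutant differed from control cells by -0.17 (interval -0.53 to 0.19, adjusted p = 0.414). Its level with full-length NFIA at day 7 also overlapped that of control cells at day 0.

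Tnnt3 set the mutant apart from control cells at day 7. It was at 1606, 1481 and 1853 FPKM in control cells, at 218, 162 and 181 with full-length NFIA, and at 855, 997 and 942 with the mutant. The mutant samples lay below all control samples, 1.77-fold lower in the mean (log2 change -0.82, interval -1.08 to -0.56, adjusted p = 3.22e-04), within the 3-fold limit. Replicate 1 of the mutant, the library with the highest Fabp4, had the lowest Tnnt3 and the highest Tnnt1. Without it the change of Tnnt3 was -0.76 (adjusted p = 0.00134 in limma).

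Tnni1 was at 1919, 1856 and 2315 FPKM in control cells, at 322, 236 and 275 with full-length NFIA, and at 1437, 1639.8 and 1566 with the mutant. Full-length NFIA lowered it 7.31-fold (log2 change -2.87, adjusted p = 1.12e-08). The mutant samples lay below the control samples by -0.39 (interval -0.65 to -0.12, adjusted p = 0.0223), and the adjusted p rose to 0.067 without replicate 1 of the mutant and to 0.082 without replicate 3 of the control cells. Tnni2 was at 1475, 1553 and 1759.8 FPKM in control cells, at 205, 165 and 181 with full-length NFIA, and at 1539.9, 1681 and 1573 with the mutant. The interval of its difference between mutant and control cells, -0.20 to 0.21 around 0.00, was the narrowest of the 8 between these groups (adjusted p = 0.971), and full-length NFIA lowered it 8.69-fold (log2 change -3.11, adjusted p = 1.17e-09).

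Tnni3 remained low, at 2.95, 3.78 and 3.74 FPKM in control cells, at 1.15, 0.905 and 1.06 with full-length NFIA, and at 2.52, 4.70 and 4.27 with the mutant. The full-length samples did not overlap the others (log2 change in FPKM + 1 against control cells -1.14, adjusted p = 1.12e-04). The FPKM themselves were 3.37-fold apart, and the change was called with a pseudocount of 0.1 (-1.66) and by voom (-1.74). Control and mutant samples overlapped (0.08, interval -0.28 to 0.44, adjusted p = 0.712). Without replicate 1 of the mutant the latter difference was 0.29 with an adjusted p of 0.0483 in limma.

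Tnnc1, the most abundant troponin transcript at day 7, was at 2214, 2092 and 2559 FPKM in control cells, at 421, 305 and 357 with full-length NFIA, and at 2403, 2489 and 2273 with the mutant. It was 6.35-fold lower with full-length NFIA (log2 change -2.67, adjusted p = 1.53e-08), and the mutant differed from control cells by 0.07 (interval -0.19 to 0.33, adjusted p = 0.668). Tnnc2 moved the other way from Tnnt3. It was at 1016, 1019 and 1195 FPKM in control cells, at 314, 219 and 251 with full-length NFIA, and at 1667, 1600.4 and 1520.2 with the mutant. The mutant samples all lay above the control samples, 1.48-fold in the mean (log2 change 0.57, interval 0.30 to 0.84, adjusted p = 0.00322), while full-length NFIA lowered the gene 4.12-fold (-2.05, adjusted p = 1.32e-07). Both differences of the mutant, in Tnnt3 and in Tnnc2, kept an adjusted p under 0.05 in every alternative run.

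Differentiation itself was read as day 7 against day 0 within each construct. In control cells 7 of 8 troponin genes rose, against 3.65% of all genes called higher, by 10.0-fold for Tnnt1 up to 31.5-fold for Tnni2. With full-length NFIA the same 7 rose, against 5.38% of all genes, and with the mutant again the same 7, against 3.91%. Only Tnni3 was not called on this scale, with log2 changes of 0.90, 0.60 and 1.23 (adjusted p = 6.77e-06, 4.44e-04 and 1.68e-07), and its rise with the mutant was called with a pseudocount of 0.1 (1.77) and by voom (1.94). With full-length NFIA, Tnnt2 went from 6.65 ± 0.405 to 155 ± 41.8 FPKM (SD, n = 3), and Tnnc2 from 7.66 ± 0.453 to 261 ± 48.4 FPKM.

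For all but Tnni3, the rise on the log2 scale was steeper with either construct than in control cells. With full-length NFIA, the log2 rise exceeded that of control cells in 7 of 8 genes at an adjusted p under 0.05 and over 1.5-fold, by 0.92 (Tnnt2) to 3.10 (Tnni1) on the log2(FPKM + 1) scale, where 16.9% of all genes had such a positive difference. The added 1 narrows the difference of the lowest genes: in FPKM, Tnni2 rose 983-fold with full-length NFIA, from 7 fragments in all, against 31.5-fold in control cells, and Tnni1 575-fold against 22.2-fold. With the Δpro#3 mutant it did so in the same 7, by 2.68 (Tnnt1) to 3.56 (Tnnc2), where 7.82% of all genes did. Tnni3 had differences of -0.30 (adjusted p = 0.154) and 0.33 (adjusted p = 0.158). At any fold, 71.2% of all genes had an adjusted p under 0.05 for the difference of full-length NFIA from control cells, and 44.7% for that of the mutant. These differences use the same samples as the comparisons at day 0 and day 7 and restate them as a change over time. With the mutant, the genes started at 3.75 to 17.3 FPKM, Tnni3 aside, and ended at 931 to 2388 FPKM, against 822 to 2288 FPKM in control cells. With full-length NFIA these genes started at 0.187 to 7.66 FPKM and ended at 76.1 to 361 FPKM. Their gain in FPKM was thus smaller than in control cells.

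**Figure D3:**
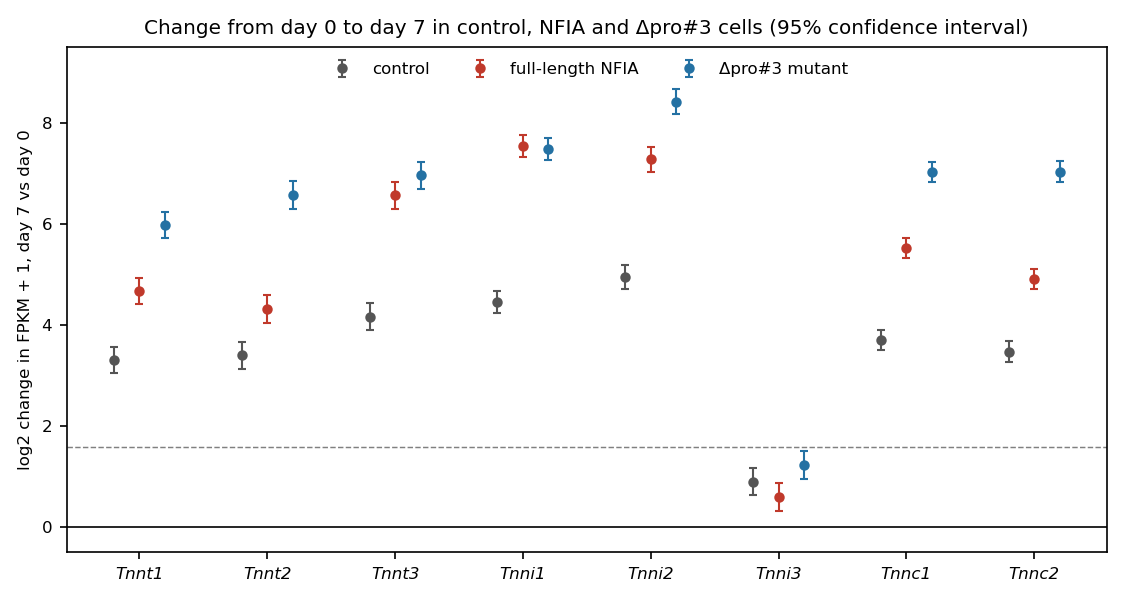
Log2 change in FPKM + 1 from day 0 to day 7 (y axis) of each troponin gene in control cells (grey), with full-length NFIA (red) and with the Δpro#3 mutant (blue), with 95% confidence intervals. The dashed line marks 3-fold. Control cells have the smallest rise for every gene but Tnni3.

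The order of the 9 groups differed little between genes. By group mean, full-length NFIA at day 0 was lowest for all 8, followed by the mutant at day 0 for all but Tnni3. For Tnni3, the lowest sample was 1 of full-length NFIA with forskolin, at 0.288 FPKM. The groups at the top, control and mutant cells at day 7 with or without forskolin, overlapped their neighbours for Tnnt1, Tnni2 and Tnnc1. For Tnnt3 and Tnni1 both control groups stood above both mutant groups without overlap, and for Tnnc2 both mutant groups stood above both control groups. Full-length NFIA at day 7 lay above control cells at day 0 without overlap for Tnnt3, Tnni1, Tnni2, Tnnc1 and Tnnc2, with 187 against 90.5, 278 against 91.6, 184 against 50.6, 361 against 174 and 261 against 95.7 FPKM in the mean.

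The same 8 genes were compared with and without forskolin. In limma, 0 of 8 were called in control cells at an adjusted p under 0.05 and over 1.5-fold, where 4.14% of all genes were called, with adjusted p-values of 0.166 to 0.872. Also 0 of 8 were called with full-length NFIA, where 13.5% of all genes were, and 0 of 8 with the mutant, where 7.43% were. At such shares of all genes, 0 of 8 is near the background and is no result about the troponin genes. Voom called 0 in each as well, and the unadjusted p was under 0.05 for 0, 4 and 2 of the 8 in control, full-length NFIA and mutant cells. At least 20.5%, 55.4% and 35.8% of all genes were under that limit, since these shares had an adjusted p under 0.05. The shares of all genes called by voom are not given. Regardless of fold, 4 genes had an adjusted p under 0.05 with full-length NFIA, as did 55.4% of all genes: Tnnt2 (log2 change -0.41, adjusted p = 0.0248), Tnnt3 (-0.28, 0.0321), Tnni1 (-0.36, 0.0107) and Tnnc1 (-0.31, 0.031). All 4 lost it after scaling by the median ratio, with adjusted p-values of 0.098 to 0.245, and without replicate 1 of the untreated cells, with 0.072 to 0.191. The difference in the response between constructs was called for 0 of 8 with full-length NFIA against control cells (10.0% of all genes) and for 0 of 8 with the mutant (2.33% of all genes), and the smallest adjusted p, 0.0293, was that of Tnni1 with full-length NFIA (log2 difference -0.47), where 30.6% of all genes were under 0.05. An unadjusted p under 0.05 was found for 5 of 8 and 0 of 8 of these differences, and voom called 0 in both. At least 30.6% and 4.97% of all genes had such an unadjusted p, and the exact shares are not given. These counts are therefore a description only.

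The construct comparisons were repeated within the forskolin-treated samples. Full-length NFIA again had 7 of 8 genes lower than control cells, against 3.77% of all genes, by 4.75-fold for Tnnc2 (235 ± 12.2 against 1116 ± 135 FPKM, SD, n = 3) to 12.8-fold for Tnnt1 (65.8 ± 10.2 against 845 ± 67.6 FPKM). The mutant had 7 of 8 higher than full-length NFIA, against 2.89% of all genes. Against control cells, the mutant had 0 of 8 called by limma with the 3-fold limit, where 1.55% of all genes were called, and 0 by voom. At an adjusted p under 0.05 alone, 5 of 8 passed, where 46.6% of all genes did.

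Among these 5, Tnnt3 was at 1767, 1809.7 and 1642 FPKM in treated control cells and at 895, 1061 and 996 in treated mutant cells, again 1.77-fold lower (log2 change -0.82, adjusted p = 2.46e-05). Tnni1 was at 2304, 2299 and 1977 against 1354, 1482 and 1341 FPKM, 1.58-fold lower (-0.65, adjusted p = 1.80e-04). Tnnt2 was at 1401, 1422 and 1209.7 against 1007, 862 and 795 FPKM, 1.51-fold lower (-0.60, adjusted p = 8.00e-04). These 3 held in every alternative run. Tnnc1 (-0.27, adjusted p = 0.0494) and Tnnc2 (0.33, adjusted p = 0.0214) did not, as their adjusted p rose to at most 0.148 and 0.0911 over the alternatives, the highest without replicate 3 of the mutant and without replicate 3 of the control cells. The differences in Tnnt3 and Tnnc2 thus had the same sign in the treated and untreated samples. The 2 sets may not be independent, as replicate 1 of the mutant deviated alike in both (correlation of 0.358).

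The composition of each subunit was then read as the share of its summed FPKM, compared by the 2-sided exact permutation test over 3 against 3 samples, whose smallest p is 0.1. Of 150 such comparisons 105 reached that smallest p, and the adjusted p was 0.143 for those, so none could pass 0.05. At day 0 the summed troponin T was 294 FPKM in control cells, 9.66 with full-length NFIA and 32.4 with the mutant. The slow Tnnt1 made up 28.0, 28.7 and 26.98% of it in control cells, 20.3, 21.6 and 20.4% with full-length NFIA, and 43.8, 46.4 and 47.6% with the mutant. Tnnt2 made up 41.1, 40.8 and 42.1% in control cells and 71.0, 71.5 and 64.2% with full-length NFIA, so what remained of troponin T there was mostly the cardiac and embryonic form.

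At day 7 the Tnnt3 share was 42.6, 46.2 and 46.2% with full-length NFIA against 44.7, 43.5 and 43.2% in control cells, which overlapped (difference of 1.24 percentage points in the mean, exact p = 0.4). The Tnnt1 share was lower with full-length NFIA, 17.9, 18.9 and 17.99% against 21.1, 21.7 and 22.5%, and the Tnnt2 share higher, 39.4, 34.9 and 35.8% against 34.1, 34.7 and 34.3%, both without overlap (exact p = 0.1 for both). In Tnnt3 and Tnnt1 the mutant lay further from control cells. Its Tnnt3 share was 26.1, 32.2 and 32.5%, and its Tnnt1 share was 36.7, 30.2 and 31.0%. Neither overlapped the control samples (differences of -13.5 and 10.8 percentage points, exact p = 0.1 for both).

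In troponin I the mutant went the opposite way between slow and fast forms. The slow Tnni1 made up 48.2, 49.3 and 49.8% with the mutant at day 7 against 56.5, 54.4 and 56.8% in control cells, and the fast Tnni2 made up the rest but for 0.121% and 0.0964% of Tnni3. In troponin C the share of Tnnc1 was 59.1, 60.9 and 59.9% with the mutant against 68.6, 67.2 and 68.2% in control cells. Against control cells, the slow share was thus larger in troponin T and smaller in troponin I and troponin C, without overlap (exact p = 0.1 for each). Over all slow and fast genes, the slow share was 54.5% with the mutant and 54.3% in control cells (exact p = 0.7). In the other conditions it differed without overlap and in opposite directions, with 65.1% for the mutant against 59.5% in control cells at day 0 and 51.6% against 54.0% with forskolin (exact p = 0.1 for both).

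**Figure D4:**
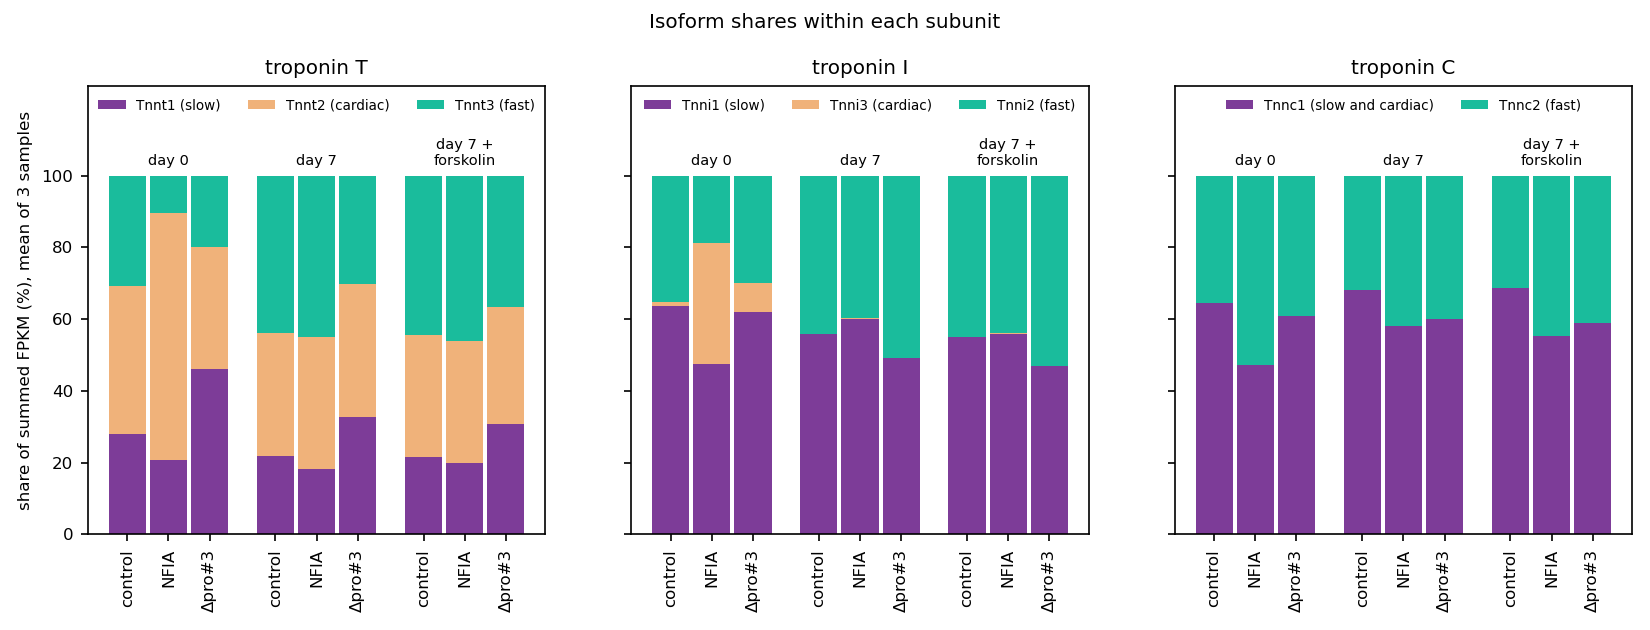
Share of each isoform in the summed FPKM of its subunit (y axis, percent, mean of 3 samples) for the cells of each construct at each time. At day 7 the mutant has a larger Tnnt1 share than control cells, 32.6% against 21.8%, and smaller Tnni1 and Tnnc1 shares.

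Tnni3 was a minor form except where the others were nearly gone. It made up 0.973% of troponin I in control cells at day 0, 34.0% with full-length NFIA and 8.19% with the mutant, at levels of 1.40, 0.341 and 1.02 FPKM. The larger share thus came with a lower level. The 3 subunits were also not in a constant ratio: troponin I per troponin T was 0.489 in control cells at day 0, 0.104 with full-length NFIA and 0.384 with the mutant, and rose to 0.966, 1.12 and 1.02 at day 7. Troponin C per troponin T was 1.57, 1.40 and 1.53 with full-length NFIA at day 0 against 0.923, 0.902 and 0.931 in control cells. In the mean it was 1.49 against 0.896 at day 7, and neither time had overlap (exact p = 0.1 for both). The mutant lay below control cells at day 0, with 0.879 against 0.918 in the mean. It lay above them at day 7, with 1.29, and with forskolin, with 1.26 against 0.902. None of these 3 comparisons had overlap (exact p = 0.1 for each).

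The 8 genes within or next to the linked pairs were counted in the same way. At day 0, 5 passed the filter on low values, and 1 was called lower with full-length NFIA (2.78% of all genes) and 0 with the mutant (1.32%). At day 7, 7 passed, of which 1 was called lower and 1 higher with full-length NFIA (3.30% and 4.87% of all genes) and again 0 with the mutant (1.44% in either direction). With so few genes, a count of 0 is near the background. The 1 called lower was Lsp1, and the 1 called higher was Pkp1, at 51.8 against 15.5 FPKM (log2 change 1.67). Lsp1, which codes for an actin-binding protein of leukocytes and lies between Tnni2 and Tnnt3, was at 64.4, 20.1 and 22.6 FPKM in control, full-length NFIA and mutant cells at day 0 and at 83.7, 20.4 and 65.5 FPKM at day 7. It was called lower with full-length NFIA at both times (log2 change -1.63 and -2.00), and the mutant had -1.47 at day 0 and -0.35 at day 7. Lad1, between Tnni1 and Tnnt2, was at 2.14 FPKM or less in every group mean, and Ppp1r12c, next to Tnnt1, was at 20.2, 17.5 and 19.7 FPKM at day 0. Phlda3 was at 61.8, 77.3 and 62.9 FPKM and Mrpl23 at 27.7, 19.7 and 20.9 FPKM at day 0, and Syt5 and Syt8 were at 1.07 FPKM or less in every group mean. Tnnt1 and Tnni3, whose gap is the smallest, differed most in level of the 3 pairs, with 822 against 3.49 FPKM in control cells at day 7.

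The troponin genes were set beside 3 lists of sarcomere genes, drawn up by function. Of all genes, 2.78% were called lower with full-length NFIA and 1.32% with the mutant at day 0, and 3.30% and 0.503% at day 7, when 0.933% were called higher with the mutant. Of 12 further thin filament genes, 8 were called lower with full-length NFIA at day 0 and 6 with the mutant, with median log2 changes of -2.15 and -1.60. Acta1, the actin of skeletal muscle, was at 245, 1.54 and 16.1 FPKM in control, full-length NFIA and mutant cells (log2 change -6.598 and -3.85). Tpm1 and Tpm2, the tropomyosins to which troponin T binds, were at 298, 127 and 173 FPKM and at 224, 105 and 142 FPKM, and neither was called. At day 7, 10 of the 12 were called lower with full-length NFIA (median -2.78) and 1 with the mutant (median 0.12), namely Tmod4, a cap of the slow-growing end of actin filaments (log2 change -1.91).

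Of the fast fiber list, 6 of 10 genes passed the filter on low values at day 0. There 5 were called lower with full-length NFIA and 4 with the mutant. Mylpf, the regulatory light chain of fast myosin, was at 340 FPKM in control cells, 1.80 with full-length NFIA and 18.4 with the mutant (log2 change -6.93 and -4.14). At day 7, 10 of 10 were called lower with full-length NFIA and 1 was called higher with the mutant, the fast myosin heavy chain Myh2, at 68.2 against 20.9 FPKM (log2 change 1.64). Without replicate 1 of the control cells, or without replicate 1 of the mutant, that count was 0.

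Of 9 slow fiber genes, 6 were tested at day 0, of which 3 were called lower with full-length NFIA and 2 with the mutant. At day 7, 8 were tested, 6 were called lower with full-length NFIA and 1 with the mutant, Csrp3, a protein of the Z-disc, at 77.3 against 367 FPKM (log2 change -2.23). Casq2, a calcium store protein of slow and cardiac muscle, was at 344 FPKM in control cells, 30.0 with full-length NFIA and 164 with the mutant at day 7 (log2 change -3.48, called, and -1.06, not called). The medians of the slow list at day 7 were -2.58 and -0.56, those of the fast list -2.97 and 0.08, and those of the troponin genes -2.98 and 0.04, against -0.08 and -0.04 over all genes. Tpm3 stands in both the thin filament and the slow list. From day 0 to day 7, 9, 8 and 11 of the 12 thin filament genes rose in control, full-length NFIA and mutant cells, 10, 9 and 10 of the 10 fast genes and 6, 4 and 7 of 8 slow genes, where 3.65%, 5.38% and 3.91% of all genes were called higher.

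**Figure D5:**
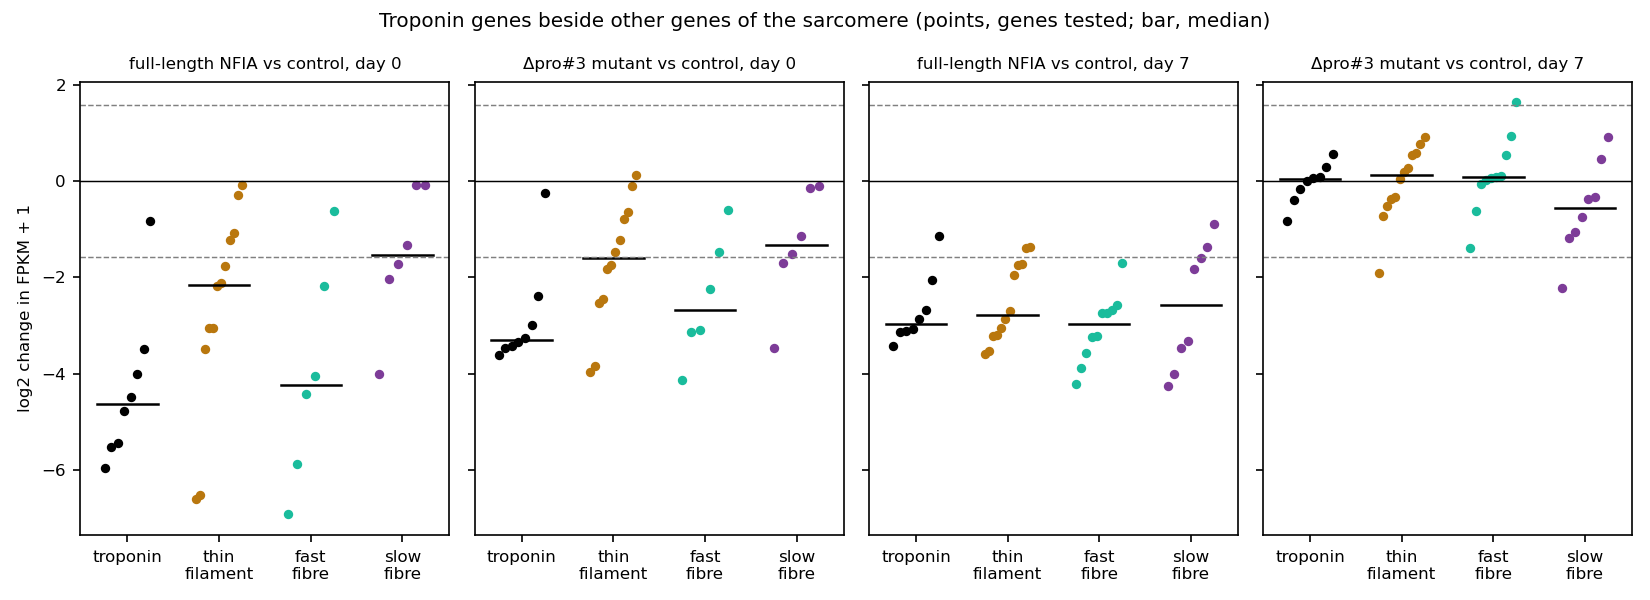
Log2 change in FPKM + 1 against control cells (y axis) of the troponin genes and of the thin filament, fast fiber and slow fiber lists (points, genes tested; bars, medians) for each construct at day 0 and day 7. Dashed lines mark 3-fold. At day 7 the medians with full-length NFIA lie between -2.98 and -2.58, and those with the mutant between -0.56 and 0.12.

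The genes whose level followed each troponin gene most closely were sought among 11582 genes by Pearson's r over the 9 group means of log2(FPKM + 1). These means share libraries and constructs, so r is a description. Tnnt1 was closest to Neb, the giant ruler of the thin filament (r = 0.994), Tnnt2 to Npnt (0.998) and Tnnt3 to Mybph (0.999). Tnni1 and Tnni2 were both closest to Myom2, which crosslinks myosin at the M-band (0.999 for both). Tnnc2 was closest to Ckm, the creatine kinase of muscle (0.996). Tnni3 had the loosest likeness, at most 0.982 with Cobl. Among the 8 themselves, r was 0.967 or more for every pair without Tnni3 and 0.853 to 0.940 for the pairs with it.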

How the data were processed

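Polyadenylated RNA of 27 samples was analysed, with groups and replicate numbers from the deposited labels. The authors aligned reads to mm9 with STAR 2.5.3a, counted uniquely mapped fragments on the matched strand and deposited FPKM without scaling between samples. In every sample 100% of values were whole multiples of 1 fragment (within 0.02), so fragments were worked back for depth and counting intervals. The 8 genes and the lists were chosen with earlier results of these data known.

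Comparisons used limma 3.58.1 in R 4.3.3 on log2(FPKM + 1), with a variance trend, over genes whose mean reached 0.5 FPKM in the fit: 1 fit of 9 samples per time point, 1 of 18 samples for day 7 against day 0, and 1 of 18 for forskolin. P-values were 2-sided and Benjamini-Hochberg adjusted over all genes tested. Calls needed an adjusted p under 0.05 and more than 3-fold in FPKM + 1 (1.5-fold for forskolin and for differences between constructs in a response). Shares used Python 3.11.15 with scipy 1.17.1. The limma fit was tested on simulated counts for full-length NFIA against control cells at day 0 only, with changes set in well-expressed genes. The other steps were not tested in this way. All 8 troponin genes are named, and of other genes the rule named those nearest in likeness, the neighbours and list examples, of which Acta1, Tpm1, Tpm2, Mylpf, Casq2, Tmod4, Myh2 and Csrp3 were chosen after their values were seen. Samples of different constructs with equal replicate numbers did not deviate together (mean correlations of 0.014 at day 0 and -0.031 at day 7). Within a construct, equal numbers correlated above 0.1 in every pair only for the mutant at day 7 with and without forskolin (0.358, 0.156 and 0.102). Unequal numbers there gave -0.303 to 0.242. The highest of these, replicate 3 without and replicate 2 with forskolin, lay above the equal pairs of replicates 2 and 3. Pairing by number is therefore uncertain beyond replicate 1. A replicate block within construct was added after seeing the data. Replicates of a group differed by more than counting noise in all 27 pairs. The same samples recur in several comparisons. Alternatives were another pseudocount, filter, scaling, fold limit, a voom fit of the fragments, the replicate block and leaving out each sample.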

Additional observations from a re-analysis of the deposited data

Results flagged for a closer look

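The rise from day 0 to day 7 differed between constructs for 7 of the 8 troponin genes, by the test of that difference in limma. Of all genes, 16.9% were called with a larger rise with full-length NFIA than in control cells and 7.82% with the mutant, and 71.2% and 44.7% had an adjusted p under 0.05 for the difference at any fold. The log2 rise with full-length NFIA exceeded that in control cells by 1.37 for Tnnt1 (adjusted p = 2.58e-06), 0.92 for Tnnt2 (2.49e-04), 2.40 for Tnnt3 (4.18e-09), 3.10 for Tnni1 (1.38e-11), 2.33 for Tnni2 (2.00e-09), 1.81 for Tnnc1 (2.16e-09) and 1.43 for Tnnc2 (7.37e-08). The rise with the Δpro#3 mutant exceeded that in the same control cells by 2.68 for Tnnt1 (adjusted p = 3.51e-09), 3.17 for Tnnt2 (8.32e-10), 2.80 for Tnnt3 (3.17e-09), 3.03 for Tnni1 (1.25e-10), 3.46 for Tnni2 (9.52e-11), 3.32 for Tnnc1 (1.03e-11) and 3.56 for Tnnc2 (8.16e-12). Every sample at day 7 lay above every sample of its own construct at day 0 for these genes. With full-length NFIA, Tnnt3, Tnni1 and Tnni2 started from 24 fragments or fewer per sample at day 0, so the size of their difference depends on the added 1 FPKM.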

How the results depend on the processing

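Over 152 gene results and 2653 alternatives, none lost its call, 40 gained one and 29 changed sign, in 12 results without a call. The 40 include runs without the fold limit, which can only add calls. Tnni3 gained calls in the same 6 comparisons with a pseudocount of 0.1 and with voom: full-length NFIA against control cells (-1.77, -1.66 and -1.64, and by voom -1.91, -1.74 and -1.71, at day 0, at day 7 and with forskolin), the mutant against full-length NFIA at day 7 and with forskolin (1.75 and 2.03, by voom 1.92 and 2.16) and the rise with the mutant (1.77, by voom 1.94). Its difference in rise between full-length NFIA and control cells turned to 0.11 with that pseudocount and 0.17 with voom. After median-ratio scaling, Tnnt1 with the mutant against control cells under forskolin became 0.022, and Tnni2 responded to forskolin by 0.0060 in full-length NFIA-expressing cells and by 0.024 in mutant cells. That scaling moved the median of all genes from -0.17 to -0.02 for full-length NFIA against control cells under forskolin, from 0.12 to 0.02 for the mutant against full-length NFIA there, from -0.11 to 0.01 and -0.11 to -0.01 for day 7 against day 0 with full-length NFIA and the mutant, and from -0.15 to -0.05 for forskolin with full-length NFIA.

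Without the fold limit, the troponin counts were 8 for the mutant against full-length NFIA at day 0, 3 and 5 for the mutant against control cells at day 7 and with forskolin, 4 for forskolin with full-length NFIA and 1 for its difference from control cells. The list counts were then 6 slow genes for full-length NFIA at day 0, 11 thin filament and 6 slow genes for the mutant at day 0, 10 thin filament, 5 fast and 7 slow genes for the mutant at day 7, and 8 slow genes for the rise with full-length NFIA. Of all genes, 73.3%, 62.2%, 48.8% and 79.7% had an adjusted p under 0.05 in these 4 comparisons. A pseudocount of 0.1 and voom each gave 4 slow genes for the mutant at day 0, and a minimum mean FPKM of 5, with fewer genes tested, gave 3 thin filament and 1 slow gene with full-length NFIA at day 0 and 2 and 1 with the mutant.

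Leaving out 1 sample gave counts of 0 to 1 for the fast genes of the mutant at day 7, against 1 with all samples, and of 0 to 2 for the troponin genes in the forskolin difference of full-length NFIA, against 0, the latter without replicate 2 of full-length NFIA at day 7 (Tnnt2 -0.62, adjusted p = 0.0265, and Tnni1 -0.59, adjusted p = 0.00853). Uncalled values that crossed 0 were those of the forskolin response (Tnnc2 -0.26 to 0.00094 and Tnni3 -0.32 to 0.037 with full-length NFIA; Tnnc2 -0.031 to 0.14, Tnnt1 -0.024 to 0.17 and Tnnt2 -0.0026 to 0.16 in control cells; Tnni2 -0.057 to 0.024 with the mutant), the difference of Tnnt3 in it (-0.094 to 0.067), and the mutant against control cells (Tnni2 -0.050 to 0.077 and Tnni3 -0.054 to 0.29 at day 7, Tnnt1 -0.12 to 0.036 with forskolin). With the replicate block, the troponin count stayed at 7 for full-length NFIA at day 0 and changed in no other comparison, and the replicate block within construct left the counts at 7 for each rise and 0 for each forskolin response. In the mutant, whose forskolin samples it pairs, the adjusted p under forskolin then went from 0.157 to 0.0439 for Tnnt1 and from 0.0565 to 0.0275 for Tnnt2, both within 1.5-fold. Of 90 group means of isoform shares and subunit ratios, 62 moved by over 1 SD when fragments were not divided by gene length. The share of Tnni1 in troponin I at day 7 was then 67.9% in control cells and 61.7% with the mutant, so Tnni1 exceeded Tnni2 there, which it did not in FPKM (49.1%). Leaving out 1 of 3 replicates cannot move a group mean by over 1 SD, so that limit could not judge it. Of 150 differences in these values, 105 had no overlap between groups, and 0 of those changed sign without division by gene length. Groups without overlap keep their order when a replicate is left out, so only that alternative could have changed their sign. Of all 150 differences, 1 changed sign without that division, and 4, 3 and 7 did without replicates 1, 2 and 3. The slow share of the mutant at day 7, which overlapped, fell 0.139 percentage points below control cells without replicate 1. Depth limits Tnni2 and Tnni1 with full-length NFIA at day 0. The causes of these shifts were not tested.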
